A study of Mus musculus with 6 samples.

Results

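The MHC class II presentation and costimulation genes were followed across 6 single-colour Agilent mouse arrays. The 10 genes were chosen by name: the class II chains H2-Aa, H2-Ab1 and H2-Eb1, the peptide-loading genes H2-DMa, H2-DMb1 and Cd74, the transactivator Ciita, and the costimulation genes Cd80, Cd86 and Cd40. They were read by 12 of 55681 gene probes, and all 10 were among 34741 genes on the array. H2-Ab1 and Cd80 had 2 probes each, and the other genes had 1. On mm9, the build of the files, the probes of the class II chains and H2-DM genes lie on chromosome 17 between 34274300 and 34453134, in the MHC, those of Ciita, Cd80 and Cd86 on chromosome 16 and that of Cd40 on chromosome 2. All 12 probes were marked well above background on all 6 arrays, and no spot was saturated.

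All mice were C57BL/6, and carried either the TIARP-/- genotype (KO) or the TIARP+/+ genotype (WT). TIARP is encoded by Steap4 and reduces metal ions at membranes. Each genotype gave 1 array of splenic neutrophils, taken from splenocytes as Ly6G+ cells on magnetic columns, 1 array of peritoneal macrophages with TNFα for 24 h, and 1 array of peritoneal macrophages without the TNF label. The macrophages were elicited with thioglycollate for 3 days. The labels number the mice 1 to 3 for each array without saying whether their RNA was pooled. Macrophage arrays of the same genotype carry the same mouse numbers and may share mice. The macrophage pairs with and without TNF may therefore not be independent of each other. They state hours for the TNF arrays alone, so TNF and time in culture cannot be told apart. The arrays share 1 slide and 1 scan. With 1 array per group no difference between a pair of arrays had a replicate check, and the small number of arrays limits the precision.

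MHC class II molecules show peptides from ingested or internalised protein to CD4+ T cells. In the endoplasmic reticulum the alpha and beta chains assemble on the invariant chain, the product of Cd74, and in the endosome H2-M, made of the H2-DM chains, trades the remnant of the invariant chain for peptide. Full T-cell activation also needs costimulation: CD80 and CD86 bind CD28 or CTLA-4 on the T cell, and CD40 receives CD40 ligand from it. B cells and dendritic cells carry class II at all times, macrophages raise it in response to interferon-gamma, and neutrophils are not known for high class II in healthy tissue. Transcription of the class II genes turns on CIITA, the product of Ciita, which binds no DNA itself and acts through proteins on the X and Y boxes of class II promoters.

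The box sequences are shown because CIITA acts through them, and they could be looked for in some of the genes described here. RefSeq promoter windows of build GRCm38.p6 were at hand for 5 of the 10 genes (H2-Aa, H2-Eb1, H2-DMa, H2-DMb1 and Cd80) and for 4 class II relatives (H2-DMb2, H2-Eb2, H2-Oa and H2-Ob). H2-Ab1, Cd74, Ciita, Cd86 and Cd40 are named only. In the 250 bases before the start site, 7 of these genes held AAC, part of the X box, followed after a gap of 24 to 27 bases by GATTGG, the Y box, which reads CCAATC on the other strand. The capitals mark AAC and GATTGG, each sequence runs 5′ to 3′ on the gene's own strand, and all lie upstream of the start site on chromosome 17.
H2-Aa (chr17:34287857-34287918, minus strand): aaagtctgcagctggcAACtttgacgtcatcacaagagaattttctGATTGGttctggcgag
H2-Eb1 (chr17:34305762-34305822, plus strand): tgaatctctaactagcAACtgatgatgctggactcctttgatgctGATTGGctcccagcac
H2-DMb1 (chr17:34153083-34153144, plus strand): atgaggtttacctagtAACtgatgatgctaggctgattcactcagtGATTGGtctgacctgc
H2-DMb2 (chr17:34145112-34145173, plus strand): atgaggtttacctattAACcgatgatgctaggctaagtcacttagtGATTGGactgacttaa
H2-Eb2 (chr17:34325529-34325589, plus strand): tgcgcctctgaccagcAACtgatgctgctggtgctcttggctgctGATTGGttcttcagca
H2-Oa (chr17:34092289-34092350, plus strand): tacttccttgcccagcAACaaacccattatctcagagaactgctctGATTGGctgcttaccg
H2-Ob (chr17:34238804-34238862, plus strand): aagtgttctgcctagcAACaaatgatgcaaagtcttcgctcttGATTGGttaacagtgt

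In H2-Aa the AAC began 79 bases and the GATTGG 49 bases before the start site. The pair began 89 and 60 bases before the start in H2-Eb1 and 92 and 62 bases before it in H2-DMb1. Searched on both strands, the spaced pair was in 253 of 32851 promoter windows of the same length (0.77%), and GATTGG alone was in 4783 (14.6%). Neither of the 2 H2-DMa windows nor the Cd80 window held the pair, which says only that these letters with this gap are not in those windows. The pair and its gap were chosen after the windows had been read, so the share is a description.

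Levels are given below as log2 of the signal relative to the 75th percentile of the same array, and a difference of 1 on this scale is 2-fold. Signals, where quoted, are before this scaling. The 75th percentile signals ran from 224 to 490, and between 56.6% and 62.1% of probes per array were well above background. Genes were called by size alone, at 2-fold or more with the brighter array well above background, and a second, smaller step of 0.3 was also counted. Spots of the same probe differed with a median SD between 0.08 and 0.10, which describes technical scatter within an array and not that between mice. Steap4 had signals of 36.0 in KO and 48.8 in WT neutrophils, 12.8 in KO and 49.2 in WT macrophages with TNF, and 83.1 in KO and 175 in WT macrophages without TNF. It was lower in KO on each pair, and on the KO array with TNF it did not rise well above background. Where its probe lies relative to the deleted part is not stated, so it checks the labels only in part.

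The labelled cell types were set against their defining genes before the results. The 8 macrophage genes summed to between 1028 and 1218 times the 75th percentile on the 4 macrophage arrays, against 225 in KO and 410 in WT neutrophils. The 8 neutrophil genes, Ly6g, S100a8 and S100a9 among them, summed to 2691 in KO and 2277 in WT neutrophils, and to between 161 and 484 on the macrophage arrays. B-cell genes were high in the neutrophil preparations: the 9 of them summed to 635 in KO and 627 in WT neutrophils, against 15.0 and 5.13 in KO and WT macrophages with TNF and 20.4 and 7.12 in KO and WT macrophages without. Of 9 dendritic-cell genes, Xcr1 was not well above background on any array.

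**Figure D1:**
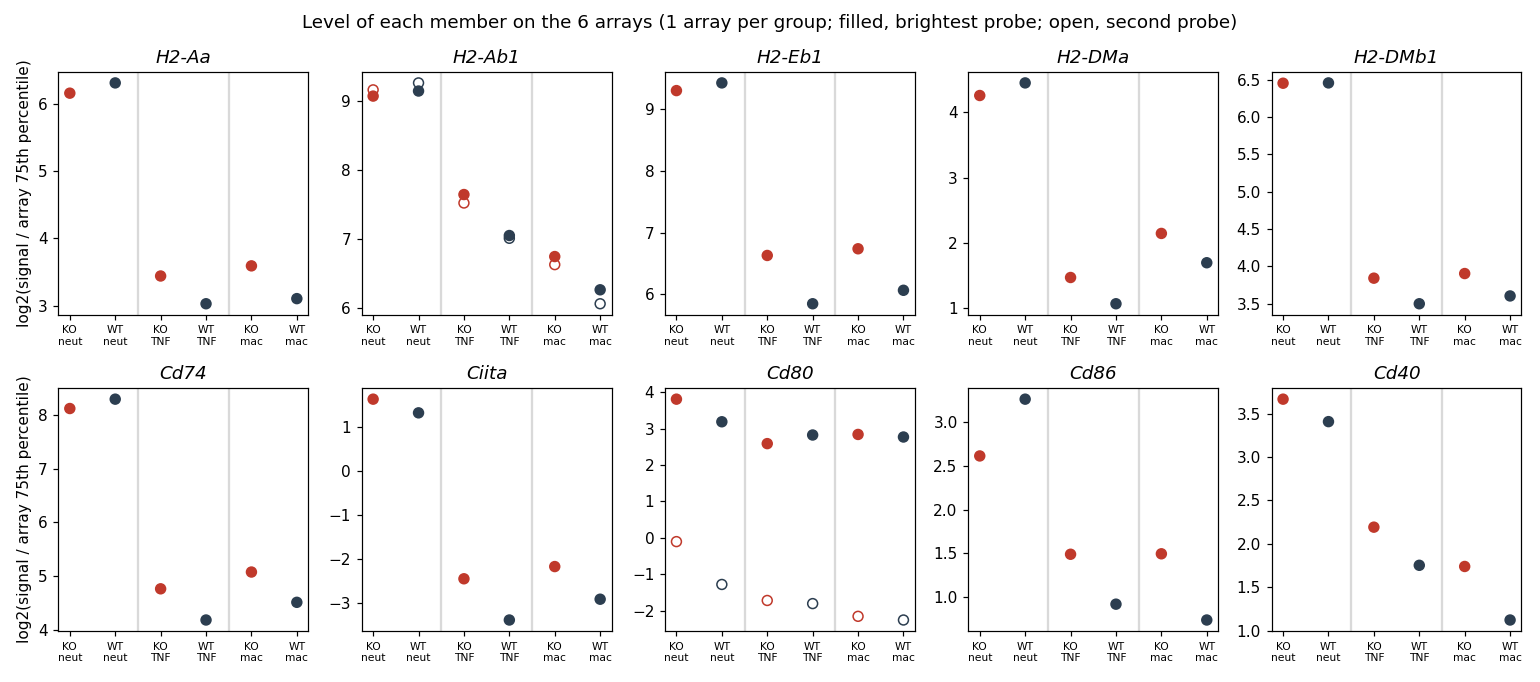
Level of the 10 genes on each array, as log2 of the signal over the array's 75th percentile, with KO in red and WT in dark blue. Filled points are the brightest probe and open points the second probe of H2-Ab1 and Cd80; each panel has its own axis. Both neutrophil arrays sit above the 4 macrophage arrays in all 10 panels, and both KO macrophage arrays sit above both WT macrophage arrays in 6.

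Without TNF, KO macrophages had higher scaled levels than WT macrophages for all 10 genes, and with TNF for 9 of 10, where 60.6% and 55.8% of all genes lay above 0. The differences were small: none of the 10 reached 2-fold in either pair, where 5.64% of 24576 genes did without TNF and 9.66% of 23694 genes did with TNF. At 0.3 or more the count was 8 of 10 without TNF (20.5% of all genes) and 9 of 10 with TNF (26.7%). At 0.3 or more in both pairs the count was 8 of 10, against 14.6% of 23159 genes, the exceptions being H2-DMb1 and Cd80. The median of the 10 differences was 0.53 without TNF and 0.51 with TNF, beside 0.07 and 0.05 over all genes tested. Both KO arrays lay above both WT arrays for 6 genes (H2-Aa, H2-Eb1, H2-DMb1, Cd74, Ciita and Cd86), against 25.9% of all genes. The 75th percentile of the KO array was lower than that of the WT array by 0.26 without TNF and 0.36 with TNF on the log2 scale, and the scaling takes this out. H2-DMb1 with TNF, for example, had signals before scaling of 4842 in KO and 4886 in WT macrophages. Under normexp, quantile and median scaling 10 and 9 genes again lay above 0, with medians of 0.44 to 0.50 without TNF and 0.45 to 0.50 with TNF. Each of these settings also brings the arrays to a common level, so none of them checks that step.

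Among the class II chains, H2-Aa, the alpha chain of I-A, stood at 3.59 in KO and 3.10 in WT macrophages without TNF. With TNF it stood at 3.44 in KO and 3.03 in WT macrophages, so the KO excess was 0.49 without and 0.41 with TNF. Both KO values lay above both WT values. H2-Ab1, the beta chain of I-A, stood at 6.75 in KO and 6.27 in WT macrophages without TNF, and at 7.64 in KO and 7.05 in WT macrophages with TNF. Its KO excess was 0.48 and 0.59, but the genotypes overlapped, since WT macrophages with TNF lay above KO macrophages without it. The second H2-Ab1 probe, which shares 51 bases of position with the first and so is not independent of it, gave 0.57 and 0.51.

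H2-Eb1 encodes the beta chain of I-E, whose alpha partner is not made in C57BL/6 mice. It had the largest KO excess of the class II chains, with 6.74 in KO and 6.07 in WT macrophages without TNF. With TNF the levels were 6.63 in KO and 5.85 in WT macrophages. The excess was 0.67 without TNF and 0.78 with it, or 1.59-fold and 1.72-fold, and the genotypes did not overlap.

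The peptide-loading genes lay in the same direction. H2-DMa stood at 2.14 in KO and 1.69 in WT macrophages without TNF, and at 1.47 in KO and 1.06 in WT macrophages with TNF, an excess of 0.45 and 0.40. H2-DMb1, the other H2-M chain, stood at 3.90 in KO and 3.60 in WT macrophages without TNF, and at 3.84 in KO and 3.50 in WT macrophages with TNF. Its excess of 0.30, just under the smaller step, and 0.34 was the least of the class II genes in both pairs. Cd74, the invariant chain, stood at 5.08 in KO and 4.52 in WT macrophages without TNF, and at 4.77 in KO and 4.19 in WT macrophages with TNF. Its excess was 0.56 and 0.58, so the genotype difference of Cd74 was nearly the same with and without TNF.

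Ciita, the transactivator of the class II genes, stood at -2.18 in KO and -2.92 in WT macrophages without TNF. With TNF it stood at -2.45 in KO and -3.39 in WT macrophages. The excess of 0.74 and 0.94, or 1.67-fold and 1.91-fold, was the largest of the 10 genes with TNF. These are low signals, between 41.2 and 90.7 on the 4 arrays. With another background correction (normexp, which models the background around each spot) the excess was 0.46 and 0.56. Normexp was run with an offset of 50 added to every signal, and this by itself shrinks differences between signals this low. The Ciita probe is also poor in sequence variety, with 39 A among its 60 bases.

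The costimulation genes differed among themselves. Cd86 stood at 1.49 in KO macrophages both without and with TNF, against 0.73 in WT macrophages without TNF and 0.92 with it. Its excess of 0.76 without TNF was the largest of the 10 genes in that pair, and it was 0.57 with TNF. Cd40 stood at 1.74 in KO and 1.12 in WT macrophages without TNF, and at 2.19 in KO and 1.75 in WT macrophages with TNF, an excess of 0.62 and 0.44. Cd80 stood apart: its brighter probe gave 2.84 in KO and 2.77 in WT macrophages without TNF, and 2.59 in KO and 2.82 in WT macrophages with TNF. The KO-minus-WT difference of that probe was 0.07 and -0.24, and that of the second probe 0.10 and 0.09, so the Cd80 probes disagreed in direction with TNF.

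**Figure D2:**
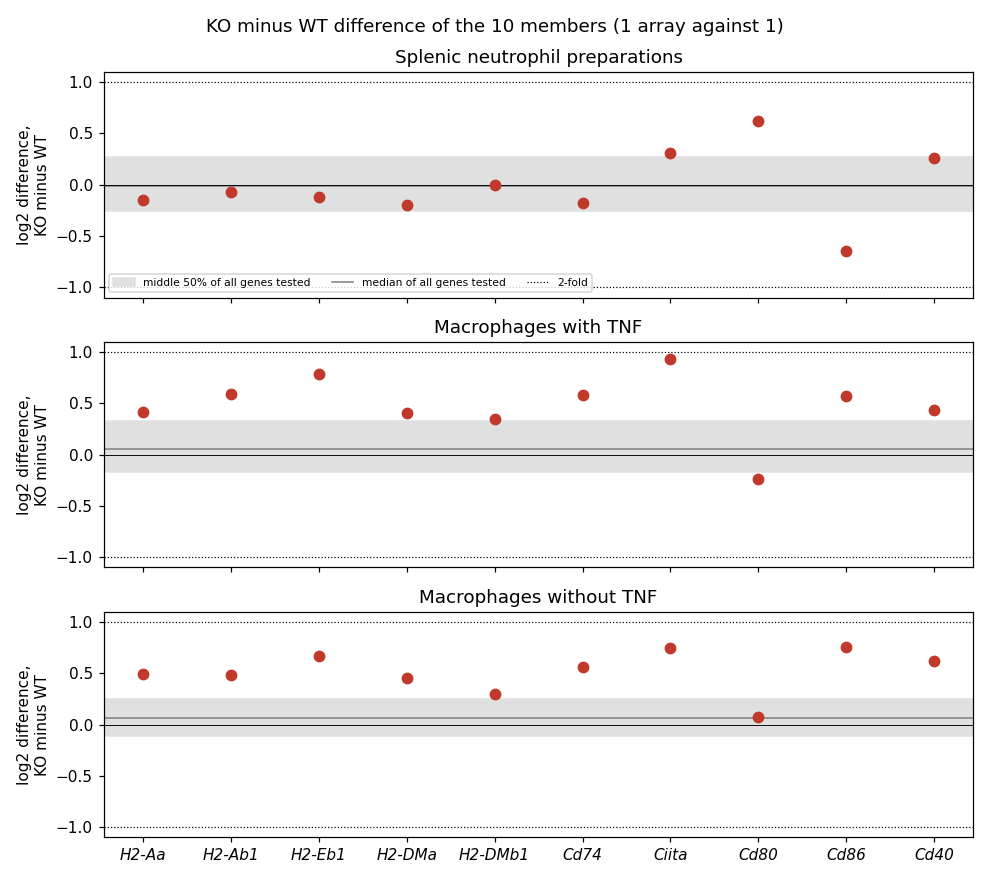
KO-minus-WT log2 difference of the 10 genes (red points) in neutrophils, macrophages with TNF and macrophages without TNF, 1 array against 1. The grey band holds the middle 50% of all genes tested, the grey line is their median and the dotted lines are 2-fold. In both macrophage panels all genes but Cd80 lie above the band, and in the neutrophil panel the 6 class II genes lie inside it.

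A test of genotype was possible only by letting the conditions stand in for replicates. In an additive limma model of genotype and condition over all 6 arrays, none of the 10 genes passed an adjusted p of 0.05 for genotype, and 2 (Ciita and Cd40) were under an unadjusted p of 0.05, as were 15% of all genes. Of all 26530 genes, 0.0113% were called higher and 0.00754% lower. The limma estimate for Ciita was 0.66 (SE 0.17, n = 6 arrays, adjusted p = 0.242), with KO above WT in 3 of 3 pairs. For Cd40 the limma estimate was 0.44 (SE 0.11, adjusted p = 0.238), again with KO above WT in 3 of 3 pairs. The class II estimates in this model ran from 0.21 to 0.44, since it averages the macrophage pairs with the neutrophil pair.

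Fitted to the 4 macrophage arrays alone, the limma model called 9 of 10 genes higher in KO, all but Cd80. It also called 9.72% of 25182 genes higher and 5.25% lower, and its spread rested on 1 residual degree of freedom per gene. The arrays with and without TNF of a genotype may share mice, which the fit did not take into account. Estimates for the 9 genes ran from 0.32 for H2-DMb1 (95% interval 0.13 to 0.51, limma adjusted p = 0.0451) to 0.84 for Ciita (0.44 to 1.24, limma adjusted p = 0.0258). For H2-Eb1 the estimate was 0.73 (0.57 to 0.88, limma adjusted p = 0.00342). When the spread was not allowed to follow the intensity, the same 4 arrays gave 0 genes past an adjusted p of 0.05, for these 10 and for all genes (0% in either direction), and 9 of the 10 had an unadjusted p under 0.05, as did 22.6% of all genes. The macrophage genotype calls therefore rest on how the spread was modelled.

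Genes of other cell types also differed between the KO and WT macrophage arrays. Of all genes, 4.09% were at least 2-fold higher in KO without TNF and 6.97% with TNF. B-cell genes were at least 2-fold higher in KO for 4 of 8 measured genes without TNF and 6 of 8 with TNF, with medians of 1.29 and 1.20. In each pair 1 of the 8 lay below 0, Cd22 at -0.07 without and -0.06 with TNF. Cd79b, a chain of the B-cell receptor, had signals of 3845 in KO and 1154 in WT macrophages without TNF, and 2302 in KO and 593 in WT macrophages with TNF. Neutrophil genes were at least 2-fold higher in KO for 5 of 8 genes without TNF and 4 of 8 with TNF, with medians of 1.47 and 0.97. With TNF 2 of the 8 lay below 0, Mmp9 at -0.58 and Retnlg at -0.33. T-cell genes were at least 2-fold higher in KO for 3 of 5 in each pair, with medians of 1.15 and 1.20. The dendritic-cell genes had medians of 0.08 and 0.03, and the macrophage genes 0.23 and 0.38. The part of these genes in the class II difference was not tested, and in whole preparations more cells of a type and more RNA per cell cannot be told apart.

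Of 12 accessory genes of class II that were not among the 10, a few differed by 2-fold or more. The list median was 0.23 without TNF and 0.24 with TNF, with 5 of 12 at 0.3 or more in each pair. Without TNF, 3 of the 12 were at least 2-fold higher in KO macrophages and none lower, against 4.09% of all genes higher. With TNF 3 of 12 were higher (H2-Ob, H2-DMb2 and H2-Eb2), against 6.97% of all genes. H2-Ob, the beta chain of H2-O, which restrains H2-M and is known above all from B cells, had signals of 573 in KO and 179 in WT macrophages without TNF, and 495 in KO and 167 in WT macrophages with TNF. Its log2 difference was 1.94 and 1.93. H2-DMb2, a second H2-M beta chain, differed by 1.59 and 1.51, and it may share signal with the close copy H2-DMb1. The H2-DMb2 signals were low, at 106 in KO and 42.2 in WT macrophages without TNF, and 65.2 and 29.3 with TNF. H2-Oa, the alpha chain of H2-O, differed by 1.18 without TNF and 0.85 with TNF, and H2-Eb2, a second E beta gene, by 0.95 and 1.44. The enzymes that cut antigen and invariant chain did not share this: Ctss, Ctsl, Ctsb and Lgmn differed by 0.02 to 0.24 in both pairs.

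Among 11 class II transcription genes, Irf4, which acts in B cells, dendritic cells and activated macrophages, was at least 2-fold higher in KO macrophages without TNF, at 1.17. With TNF Irf4 differed by 0.86 and no gene of that list reached 2-fold. Of the X-box and Y-box proteins without TNF, Rfxap differed by 0.07, Rfxank by 0.47, Nfya by -0.02, Nfyb by 0.07 and Nfyc by 0.25. Rfx5 had signals of 10.1 in KO and 10.5 in WT macrophages without TNF. It was not well above background on that KO array, so no difference is given for it. The list median was 0.16 over 10 measured genes without TNF and 0.24 over 11 with TNF.

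The other costimulation and checkpoint ligands had a median of 0.50 without TNF, with 8 of 9 measured genes above 0 and 6 at 0.3 or more, and of 0.21 with TNF, with 6 of 10 above 0 and 5 at 0.3 or more. None was 2-fold higher; 1 of 9 measured genes was at least 2-fold lower in KO macrophages without TNF and 2 of 10 with TNF, against 1.55% and 2.69% of all genes. Cd276 (B7-H3) had signals of 35.9 in KO and 104 in WT macrophages without TNF, and 18.1 in KO and 60.0 in WT macrophages with TNF, a difference of -1.28 and -1.37. Tnfsf4, the ligand of OX40, had signals of 22.9 in KO and 152 in WT macrophages with TNF, a difference of -2.38, and was not well above background on either array without TNF. No class I presentation gene reached 2-fold, with list medians of 0.30 and 0.38, and none of the interferon-gamma genes did, with medians of 0.06 and 0.33. Of 3 measured T-cell partners of costimulation, Pdcd1 was at least 2-fold higher in KO macrophages without TNF, at 1.18 (4.09% of all genes). With TNF Pdcd1 and Icos were, at 1.62 and 1.07 (6.97% of all genes). These signals were low: Pdcd1 had 76.8 in KO and 40.6 in WT macrophages without TNF, and 80.3 and 33.4 with TNF. Icos had 29.2 in KO and 17.8 in WT macrophages with TNF. Cd28 differed by 0.07 without TNF and by -0.27 with TNF.

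**Figure D3:**
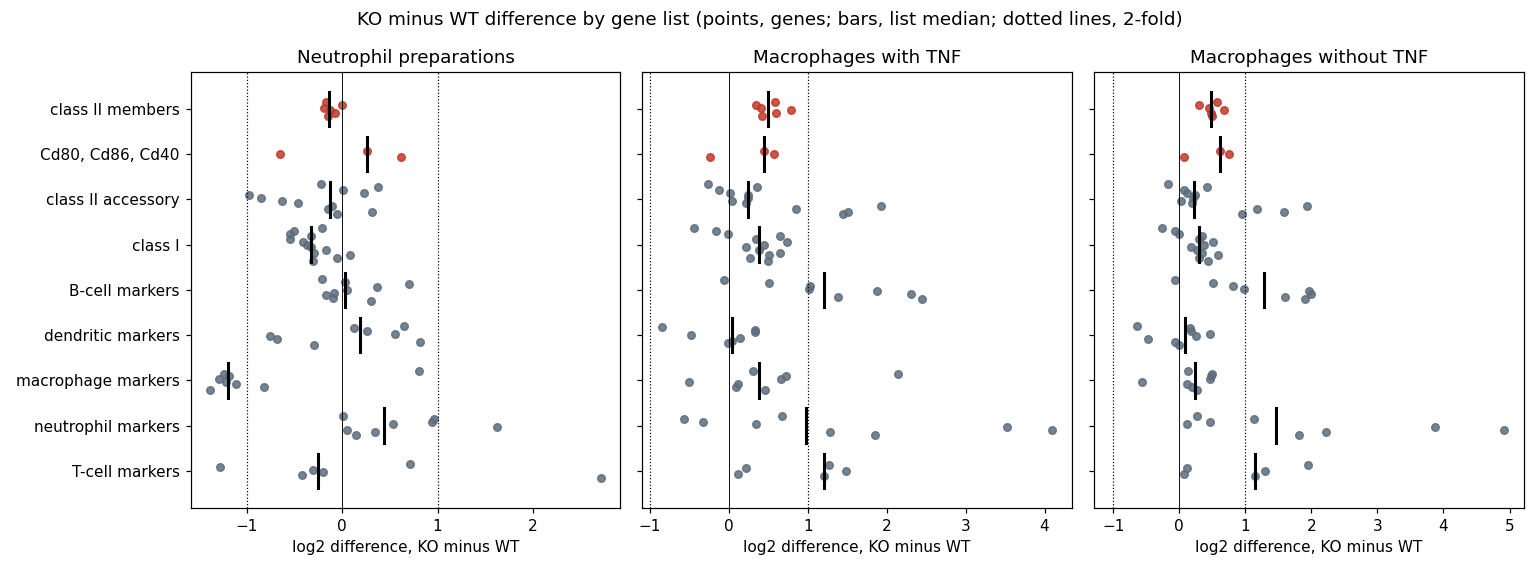
KO-minus-WT log2 difference of each gene, by list, in neutrophil preparations, macrophages with TNF and macrophages without TNF, for genes well above background on at least 1 array of the pair. Black bars are list medians, dotted lines are 2-fold and red points are members. The class II medians lie at 0.50 and 0.48 in the macrophage panels, where the B-cell medians lie at 1.20 and 1.29, and at -0.14 in the neutrophil panel, where the B-cell median lies at 0.03.

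In neutrophils the KO and WT arrays were close for class II, while Cd80 and Cd86 lay further apart. None of the 10 genes reached 2-fold, against 8.39% of 23958 genes. The class II median was -0.14, beside -0.01 over all genes. H2-Aa stood at 6.16 in KO and 6.32 in WT neutrophils, H2-DMa at 4.26 in KO and 4.45 in WT neutrophils, and Cd74 at 8.12 in KO and 8.29 in WT neutrophils. H2-Ab1 stood at 9.07 in KO and 9.14 in WT neutrophils, H2-Eb1 at 9.30 in KO and 9.42 in WT neutrophils, and H2-DMb1 at 6.45 in KO and 6.46 in WT neutrophils. The last 3 genes changed sign under quantile normalization, so no direction is given for them. With the signs as measured, 7 of the 10 genes lay above 0 in both macrophage pairs and below 0 in neutrophils. Counted in either direction, 32.3% of 21670 genes had one sign in both macrophage pairs and the other in neutrophils. The share of all genes with the direction of the 7 alone is not given.

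The costimulation genes of neutrophils differed in direction. Cd86 stood at 2.61 in KO and 3.27 in WT neutrophils, a difference of -0.65, which 8.61% of genes fell below. Cd80 stood at 3.81 in KO and 3.19 in WT neutrophils, a difference of 0.62. Its second probe stood at -0.10 in KO and -1.28 in WT neutrophils, a difference of 1.17, so both Cd80 probes were brighter in KO and only the dimmer passed 2-fold. Cd40 stood at 3.67 in KO and 3.41 in WT neutrophils, a difference of 0.26, and Ciita at 1.63 in KO and 1.32 in WT neutrophils, a difference of 0.31. Of the T-cell partners of costimulation, 3 of 4 measured were at least 2-fold lower in KO neutrophils, where 4.74% of all genes were lower. They were Cd28 at -2.04, Ctla4 at -1.25 and Icos at -1.29, and Pdcd1 differed by 0.24. Ctla4 and Icos signals were low, at 22.0 and 43.3 in KO and 54.0 and 109 in WT neutrophils. T-cell genes went both ways in this pair. Cd3d was at least 2-fold higher in KO, at 2.71, and Cd8a at least 2-fold lower, at -1.28. Of 6 measured T-cell genes 4 lay below 0, with a median of -0.25.

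Marker genes differed in this pair too. Macrophage genes were at least 2-fold lower in KO neutrophils for 6 of 8, with a median of -1.20, and neutrophil genes had a median of 0.44. Of the 8 macrophage genes 1 lay above 0, Lyz2 at 0.81. The B-cell genes had a median of 0.03, and none of 9 reached 2-fold. Of 12 accessory genes none reached 2-fold, and H2-Ob and H2-DMb2, which stood out in macrophages, differed by -0.11 and 0.31. Tnfsf18, the ligand of GITR, was lower by 1.69 on the log2 scale, and Ifng had signals of 13.9 in KO neutrophils, not well above background, and 36.7 in WT neutrophils. Class I presentation genes lay below 0 in 12 of 13, with a median of -0.33, where 48.6% of all genes lay above 0. The part of the marker genes in these differences was not tested.

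With TNF, single members of the pathway stood higher or lower in the same way in both genotypes, none by 2-fold. At 2-fold or more, 8.18% of genes differed in KO macrophages and 9.01% in WT macrophages. At 0.3 or more in both genotypes, H2-Ab1 and Cd40 were above their levels without TNF (14% of 23367 genes) and H2-DMa and Cd74 below them (14%). H2-Ab1 had the largest difference, with levels of 7.64 with TNF and 6.75 without in KO macrophages, and 7.05 with TNF and 6.27 without in WT macrophages. The TNF difference was 0.90 in KO and 0.79 in WT macrophages, and 0.89 in KO and 0.95 in WT macrophages by the second probe. H2-DMa went the other way, with levels of 1.47 with TNF and 2.14 without in KO macrophages, and 1.06 with TNF and 1.69 without in WT macrophages. Its TNF difference was -0.68 in KO and -0.63 in WT macrophages.

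Other members differed less. Cd40 was above its level without TNF by 0.45 in KO and 0.63 in WT macrophages. Cd74 differed by -0.31 in KO and -0.33 in WT macrophages, and Ciita by -0.28 in KO and -0.47 in WT macrophages, or by -0.02 and -0.12 with normexp. H2-Aa, the partner chain of H2-Ab1, differed by -0.15 in KO and -0.08 in WT macrophages, H2-Eb1 by -0.11 and -0.22, and H2-DMb1, the partner of H2-DMa, by -0.06 and -0.10. Partner chains of the same complex therefore differed by unequal amounts. Cd80 differed by -0.25 in KO and 0.05 in WT macrophages by its brighter probe, and by 0.43 and 0.45 by the other, and Cd86 by -0.01 and 0.18.

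**Figure D4:**
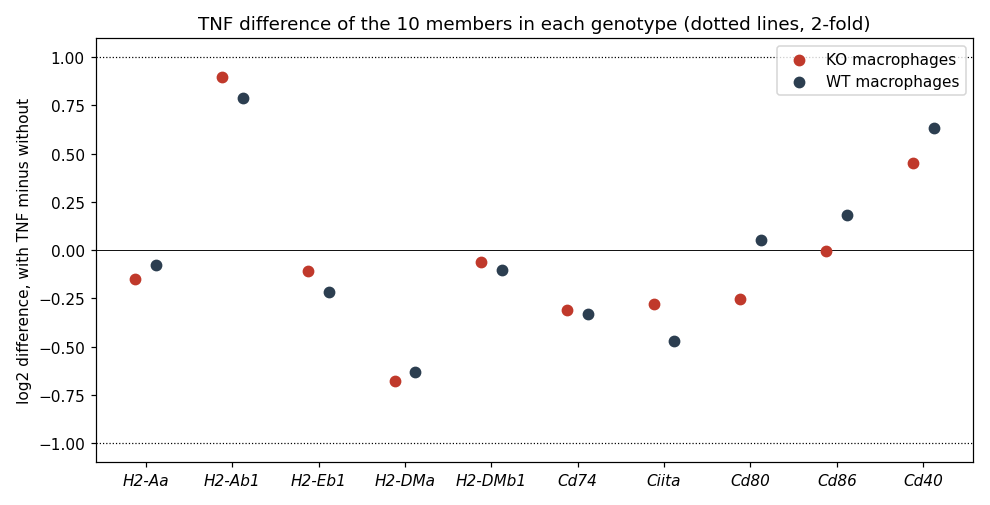
Log2 difference with TNF minus without TNF for the 10 genes in KO (red) and WT (dark blue) macrophages, 1 array against 1, with dotted lines at 2-fold. H2-Ab1 lies highest, at 0.90 in KO and 0.79 in WT macrophages, and H2-DMa lowest, at -0.68 and -0.63.

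The additive limma model over 6 arrays called none of the 10 genes for TNF at an adjusted p of 0.05, against 2.43% of genes called higher and 1.31% called lower. H2-Ab1, H2-DMa and Cd40 had an unadjusted p under 0.05, with limma adjusted p of 0.0952, 0.17 and 0.116, and 19.3% of all genes were under that unadjusted p too. On the 4 macrophage arrays alone limma called 4 genes: H2-Ab1 at 0.84 (SE 0.06, adjusted p = 0.00051), Cd40 at 0.54 (SE 0.10, adjusted p = 0.013), H2-DMa at -0.65 (SE 0.09, adjusted p = 0.00541) and Cd74 at -0.32 (SE 0.07, adjusted p = 0.0251). That fit called 12.4% of genes higher and 10.4% lower, and without the intensity trend it called 0 genes (0%), with 5 of the 10 and 28.5% of all genes under an unadjusted p of 0.05. The TNF difference in KO minus that in WT was within 2-fold for all 10 genes, with 2.12% of 21731 genes beyond it. It was furthest from 0 for Cd80, at -0.31 by the brighter probe and -0.02 by the other. The TNF difference had opposite signs in KO and WT macrophages for 2 of the 10 genes, Cd80 and Cd86, as for 22.9% of all genes.

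Around the 10 genes, TNF arrays differed most in other costimulation ligands, of which 6 of 10 measured genes were at least 2-fold higher in each genotype, against 4.45% of all genes in KO and 4.41% in WT macrophages. Icam1, an adhesion ligand for LFA-1, was higher by 2.48 in KO and 2.70 in WT macrophages, and Tnfsf9, the ligand of 4-1BB, by 1.97 and 2.35. Cd70, the ligand of CD27, was higher by 2.94 in KO macrophages and by at least 3.94 in WT macrophages, where it was not well above background without TNF. Tnfsf4 was higher by at least 1.41 in KO and at least 4.11 in WT macrophages. Cd274 and Pdcd1lg2, the PD-1 ligands, were higher by 1.26 and 1.23 in KO and by 1.42 and 1.18 in WT macrophages. Of the same 10 genes, 3 (Cd83, Cd276 and Cd48) were lower by 0.3 or more in each genotype, none by 2-fold.

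Among accessory genes with TNF, Lgmn, an endosomal protease, differed by -1.74 in KO and -1.73 in WT macrophages, where 3.73% and 4.6% of all genes were at least 2-fold lower. March1, a ligase that removes class II and CD86 from the surface, was higher by 1.36 in KO and 1.43 in WT macrophages. H2-Oa differed by 0.92 in KO and 1.25 in WT macrophages. Socs1 and Jak2 of the interferon-gamma list were higher by 1.68 and 1.41 in KO and by 1.60 and 1.10 in WT macrophages. Il10 of that list went the other way, with signals of 12.3 with TNF and 29.1 without in KO macrophages. In WT macrophages the Il10 signals were 11.3 with TNF and 33.2 without, and neither TNF signal was well above background. Of 9 measured genes of the list, 7 lay above 0 and 2 below it in each genotype. B-cell genes had medians of -0.30 in KO and -0.45 in WT macrophages in the same comparison, and macrophage genes of -0.94 and -1.03. The macrophage genes were split: 4 of 8 were at least 2-fold lower in each genotype, and 4 in KO and 2 in WT macrophages lay above 0. Csf1r, for example, was higher by 0.47 in KO and 0.58 in WT macrophages. Neutrophil genes had medians of -0.06 in KO and 0.67 in WT macrophages. At least 2-fold higher were 2 of 8 in KO and 3 of 8 in WT macrophages, with Camp at 4.57 and 4.17. The part of these marker genes in the TNF differences was not tested.

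The widest contrast was between neutrophil preparations and macrophages without TNF. In KO and in WT mice 9 of 10 genes were at least 2-fold higher in neutrophils, all but Cd80, where 25.3% and 26.4% of all genes were higher. Both neutrophil arrays lay above all 4 macrophage arrays for all 10 genes, against 39.2% of genes. Ciita differed most, by 3.80 in KO and 4.23 in WT mice, the second of which is 18.8-fold. Cd74 followed with 3.04 in KO and 3.78 in WT mice, and the other 5 class II genes lay between 2.12 and 3.36.

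The costimulation genes differed less between the cell types. Cd40 was higher in neutrophils by 1.93 in KO and 2.29 in WT mice, Cd86 by 1.12 and 2.53, and Cd80 by 0.97 and 0.42. The second Cd80 probe gave 2.05 in KO and 0.97 in WT mice. In the additive limma model over 6 arrays all 10 genes were called higher in neutrophils, with 32.5% of all genes called higher. The smallest limma estimate was 0.69 for Cd80 (SE 0.22, adjusted p = 0.0464) and the largest 4.02 for Ciita (SE 0.21, adjusted p = 0.00035). With normexp 9 of 10 were called (50.2% of all genes higher), and without the intensity trend 9 of 10 (31.1%), Cd80 having a limma adjusted p of 0.0898. Normexp also moved the median of all genes in this contrast, to 0.28 in KO and 0.34 in WT mice, beside 0.10 and 0.12 with the main background.

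The B-cell genes were higher in the same arrays by more: all 9 were at least 2-fold higher in neutrophils, with medians of 4.91 in KO and 6.40 in WT mice. H2-Ob was higher by 5.07 in KO and 7.11 in WT mice, H2-Oa by 5.32 and 6.65, H2-DMb2 by 5.29 and 6.57, and Irf4 by 5.11 and 6.29. Of the 12 accessory genes, 5 were at least 2-fold higher in neutrophils in each genotype, and 6 in KO and 7 in WT mice were at least 2-fold lower, where 19.6% and 17.9% of all genes were lower. The proteases were among the lower ones, Ctsl at -6.14 in KO and -5.48 in WT mice and Lgmn at -3.00 and -1.78. Cd83 and Icosl, further ligands of antigen-presenting cells, were higher by 2.79 and 4.19 in KO and by 3.41 and 4.66 in WT mice. The dendritic-cell genes summed to 512 in KO and 440 in WT neutrophils, against 222 to 272 times the 75th percentile on the macrophage arrays, with medians of 1.10 in KO and 0.69 in WT mice. Of the 8 measured, 4 in KO and 3 in WT mice were at least 2-fold higher and 1 in each lower. Siglech and Ccr7 were by far the brightest and weigh most in the summed values. Siglech had signals of 77285 in KO and 66566 in WT neutrophils, and Ccr7 of 33983 and 32335. Siglech was as bright in macrophages without TNF, at 81213 in KO and 85658 in WT, so the sums say little about dendritic cells. The part of B-cell and dendritic-cell RNA in the class II level of the neutrophil arrays was not tested.

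Profiles over the 6 arrays were compared by the mean absolute difference of log2 values centred on each gene's own mean. H2-Aa lay nearest the mean of the 6 class II genes, at 0.04, and H2-Ab1 furthest, at 0.46. Cd40, Cd86 and Ciita lay at 0.47, 0.49 and 0.59 and Cd80 at 0.95. Among 20138 other genes the nearest to the class II mean were Tmem184a at 0.10, a lincRNA probe on chromosome 4 and Fgfr4 at 0.11 each, Ddit3 at 0.11 and Klhl6 at 0.12. Nearest to Ciita were Kbtbd11 (0.10) and EF410146 (0.15), to Cd86 Mef2b (0.10) and BRN1-A (0.11), to Cd80 Txndc8 (0.04) and Cnnm4 (0.05), and to Cd40 an unnamed probe (0.06) and Rab10os (0.08). With 6 arrays and so many genes, near profiles are a description of these arrays.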

How the data were processed

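The deposited files hold single-colour Cy3 spot intensity on a linear scale, which the authors quantified with Agilent Feature Extraction 10.7.3.1, per the submitters' processing notes. Per the file headers, the processed intensity was background-subtracted and detrended, with no scaling between arrays, and probe coordinates were on mm9. From it, log2 values were computed and the 75th percentile of each array subtracted; the deposited values were not log2. Outlier spots were left out and repeated spots averaged. A gene was its probe with the highest mean over 6 arrays. Other genes took RefSeq names (GRCm38.p6, names only).

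With 1 array per group, pairs were compared by size (2-fold; well above background on the brighter array, by the files' mark; a bound where the dimmer array was not). Adjusted p-values came from limma 3.58.1 in R 4.3.3 (additive model, intensity trend, Benjamini-Hochberg over all genes). The fit was also run on simulated data, but no outcome of that run is given. A simulation cannot show whether these arrays share mice, so it is not a check of the p-values reported here. Alternatives were normexp (offset 50), quantile and median scaling, other probe and background filters, 4 macrophage arrays alone and, chosen after seeing the data, no intensity trend.

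Members and lists were chosen with earlier results of these data known. Named were the 10 members; up to 4 genes per direction of 5 related lists past 2-fold; markers; and the nearest profiles (5 for class II, 2 for each other). Further list genes were named after their values were seen.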

Additional observations from a re-analysis of the deposited data

Results flagged for a closer look

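The KO-minus-WT difference had one sign on both macrophage pairs and the other sign in neutrophils for 7 of the 10 genes, where 32.3% of all genes had such a pattern. The mean macrophage difference minus the neutrophil difference was 1.32 for Cd86, 0.85 for H2-Eb1, 0.75 for Cd74, 0.62 for H2-DMa, 0.61 for H2-Ab1, 0.60 for H2-Aa and 0.33 for H2-DMb1. In each case the macrophage pairs were above 0 and the neutrophil pair below it, and the difference was not tested. For H2-Ab1, H2-Eb1 and H2-DMb1 the neutrophil value was so near 0 that quantile normalization turned its sign.

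The TNF difference had opposite signs in KO and WT macrophages for the brighter Cd80 probe, with a KO-minus-WT value of -0.31, and for Cd86, with -0.19. Neither was tested. The second Cd80 probe gave TNF differences of 0.43 in KO and 0.45 in WT macrophages.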

How the results depend on the processing

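No paired analysis was possible because each group had 1 array. The macrophage arrays of a genotype carry the same mouse numbers in the labels and may share mice. Counts of members past 2-fold were 0 for both genotype pairs of macrophages, for neutrophils, for TNF in either genotype and for the difference between the TNF differences, under all 6 alternatives. For neutrophils against macrophages the count stayed at 9 in WT mice and was between 8 (normexp) and 10 (quantile, median scaling, or the median over probes) in KO mice. With the 4 macrophage arrays alone limma called 9 of 10 genes for genotype, against 0 over 6 arrays, and 4 for TNF, against 0; without the intensity trend both counts were 0. Limma called 3771 genes in all for genotype on the 4 macrophage arrays, against 5 over 6 arrays, and 5727 for TNF, against 994. For the neutrophil term limma called 10 genes, and 9 with normexp or without the trend. Of 96 single-probe differences, normexp moved 24 and quantile normalization 27 by more than the scatter between spots, and median scaling moved none. For low genes such as Ciita the size of a difference depended on the background setting. Under normexp the Ciita TNF difference was -0.02 in KO and -0.12 in WT macrophages. The offset of 50 in that setting by itself shrinks differences between low signals.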
